A study of Mus musculus with 8 samples.

Results

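Gabra3, Gabre and Gabrq are 3 subunit genes of the GABA-A receptor, and they lie side by side on mouse chromosome X. They were taken as the genes of both deposited count tables that carry these symbols, which gave 3 genes of 34399 gene symbols. They were singled out because Gabra3 and Gabre stood far higher in the Smad2/3 double knockout (DKO) libraries than in their controls, so their values in that comparison are given as a description, with no test. RNA was sequenced from GFP-positive cells sorted from mouse heart ventricles 4 weeks after transverse aortic constriction (TAC), surgery that narrows the aorta so that the heart pumps against a higher pressure. Surgery was at 8 to 10 weeks of age.

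The 8 libraries formed 4 groups of 2. Smad2/3 DKO cells (libraries HK15 and HK16) carried loxP-targeted Smad2 and Smad3 and a MerCreMer knock-in at Postn, a gene of activated fibroblasts. Their Postn-Cre control cells (HK3 and HK4) carried the same knock-in and no targeted allele is named for them. Tgfbr1/2 DKO cells (HK2 and HK4) carried loxP-targeted Tgfbr1 and Tgfbr2 and a MerCreMer knock-in at Tcf21, a gene of resident fibroblasts. Their Tcf21-Cre control cells (HK6 and HK7) carried that knock-in, again with no targeted allele named. Mice of all 4 groups, controls included, had an eGFP reporter at Rosa26 that Cre switches on. All received tamoxifen, at 100 mg/kg by injection for 2 days and then in chow at 40 mg/kg. Loss of the targeted genes is limited to cells in which the knock-in was active, and GFP marks those cells. The HK4 of the Postn-Cre controls and the HK4 of the Tgfbr1/2 DKO group are different libraries. Each DKO group was sequenced in 1 run together with its own controls, so run, Cre driver and targeted genes cannot be told apart between the comparisons. Nothing in the labels tells separate animals from pools, so a p-value reflects the spread of these libraries alone, which may be technical.

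GABA-A receptors are chloride channels built from 5 subunits around a central pore and opened by the transmitter GABA. They are best known for fast inhibition in the brain, where most contain alpha, beta and gamma subunits. Gabra3 encodes the alpha3 subunit, Gabre the epsilon subunit and Gabrq the theta subunit. Epsilon and theta are rarer subunits that can join alpha and beta subunits in some neurons. All 3 belong to the cys-loop family of ligand-gated channels, which also holds glycine, nicotinic acetylcholine and 5-HT3 receptor subunits.

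In GENCODE vM21 (GRCm38), Gabre (ENSMUSG00000031340) spanned positions 72255999 to 72274803 of chromosome X on the minus strand, with 10 merged exons and 4736 exonic bases. Gabra3 (ENSMUSG00000031343) spanned 72432681 to 72656848 on the same strand, with 11 merged exons and 3924 exonic bases. Gabrq (ENSMUSG00000031344) spanned 72825178 to 72842602 on the plus strand, with 10 merged exons and 5352 exonic bases. Gaps of 158 kb and 168 kb separated the neighbours, and the whole cluster covered 587 kb. Gabra3 alone spanned 224 kb, against 18.8 kb for Gabre and 17.4 kb for Gabrq.

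The sequences just before the RefSeq start sites of the 2 genes that differ most in level are shown because they are unlike in base composition. Each runs 250 bases up to the RefSeq start site (GRCm38.p6), 5′ to 3′ on the minus strand, with the Smad core box CAGAC or its reverse complement GTCTG in capitals.
Gabra3, chrX:72656920-72657169: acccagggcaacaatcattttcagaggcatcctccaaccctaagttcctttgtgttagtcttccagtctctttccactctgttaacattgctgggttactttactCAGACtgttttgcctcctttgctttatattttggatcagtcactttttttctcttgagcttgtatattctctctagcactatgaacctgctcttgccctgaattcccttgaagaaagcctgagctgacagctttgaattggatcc
Gabre, chrX:72274722-72274971: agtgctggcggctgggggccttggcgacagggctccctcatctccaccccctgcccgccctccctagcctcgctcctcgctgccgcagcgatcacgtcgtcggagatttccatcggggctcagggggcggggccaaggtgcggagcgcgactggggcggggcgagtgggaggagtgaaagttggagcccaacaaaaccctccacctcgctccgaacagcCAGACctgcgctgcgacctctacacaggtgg
The Gabra3 stretch held 0 CpG dinucleotides and 42.4% G and C, and the Gabre stretch held 21 CpG and 68.8%. Over 32817 RefSeq promoters of the same length, the median was 6 CpG (quartiles 2 and 16) and 52.4% G and C. The matching stretch of Gabrq held 19 CpG and 67.2% G and C. A second annotated start of Gabra3 also had 0 CpG, with 39.2% G and C. Each of the 2 printed stretches held 1 match to CAGAC or GTCTG, and 42.2% of all promoters held at least 1. The GENCODE start of Gabre, at 72274803, lies before its RefSeq start. The last part of the Gabre stretch, with its CAGAC, is therefore inside the GENCODE span of the gene. Gabrq and the second Gabra3 start had 0 matches. The palindrome GTCTAGAC, which contains no other searched motif, was found in 0 of the 4 stretches and in 0.168% of all promoters. The motif GGCGC or its reverse complement GCGCC had 3 matches before Gabrq and 0 in the other 3 stretches, against a share of 32.0% of promoters with at least 1. A match to such short letters is a description of the sequence and does not show binding.

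Library totals ran from 21477664 to 32594508 counts, and levels are given as CPM, counts per 1000000 of the library total. At these depths, 3 counts correspond to 0.0920 to 0.140 CPM, a floor that covers counting error only. Dcn, Pdgfra and Ddr2, fibroblast genes, were present in every library, and all 12 fibroblast markers examined reached 1 CPM in every group. In the total counts of the targeted genes no loss was detected: edgeR's log2 fold change was -0.19 for Smad2 (adjusted p = 0.747), -0.26 for Smad3 (adjusted p = 0.702), -0.24 for Tgfbr1 (adjusted p = 0.533) and 0.25 for Tgfbr2 (adjusted p = 0.535). The floxed exons are not named in the labels, so these totals do not test the deletion itself, and DKO is the labels' own term.

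Gabra3, the alpha subunit of the cluster, had 65.5 and 79.5 CPM in the Smad2/3 DKO libraries, against 0.346 and 0.174 CPM in the Postn-Cre control libraries. In the run with the other driver it had 1.01 and 1.57 CPM in the Tgfbr1/2 DKO libraries, against 3.80 and 2.36 CPM in the Tcf21-Cre control libraries. Both Smad2/3 DKO libraries lay far above the other 6, and in the Tgfbr1/2 comparison both DKO libraries lay below both controls. The Smad2/3 DKO values rested on 1673 and 1708 counts, and those of the Postn-Cre controls on 9 and 4 counts. Group means were 72.5 ± 9.89 CPM in Smad2/3 DKO and 0.260 ± 0.122 CPM in Postn-Cre control cells (SD, n = 2 each). They were 1.29 ± 0.394 CPM in Tgfbr1/2 DKO and 3.08 ± 1.02 CPM in Tcf21-Cre control cells (SD, n = 2 each). In bulk RNA, fewer cells that express a gene and less of its RNA per cell cannot be told apart.

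The edgeR log2 fold change of Gabra3 in Smad2/3 DKO over Postn-Cre control was 8.01, a 259-fold difference and the 10th highest of 15760 genes tested. It moved most when a control library was left out, being 8.62 without control HK3 and 7.62 without control HK4. The level of Gabra3 was thus close to the counting floor in the controls and far above it in the DKO libraries.

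Gabre, the epsilon subunit, had 20.5 and 38.1 CPM in the Smad2/3 DKO libraries, against 2.73 and 2.00 CPM in the Postn-Cre control libraries. In the second run it had 1.81 and 1.47 CPM in the Tgfbr1/2 DKO libraries, against 1.88 and 4.14 CPM in the Tcf21-Cre control libraries. HK15 and HK16 were again the 2 highest of the 8, and the other 6 lay within a narrow band that included all 4 libraries of the Tgfbr1/2 comparison. Its means were 29.3 ± 12.4 CPM in Smad2/3 DKO and 2.37 ± 0.516 CPM in Postn-Cre control cells (SD, n = 2 each). The log2 fold change was 3.57, or 11.8-fold, the 98th highest of 15760, and ran from 3.04 to 3.95 when 1 library was left out. Non-overlap of groups of 2 is common: 25.5% of the genes tested in this comparison had both Smad2/3 DKO libraries above both controls.

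Gabrq, the theta subunit, was close to undetected. It had 31 counts, or 1.21 CPM, in Smad2/3 DKO library HK15, and 0 counts in HK16 and in both Postn-Cre control libraries. It had 0 counts in both Tgfbr1/2 DKO libraries, and 4 and 0 counts in the Tcf21-Cre control libraries. The 2 Smad2/3 DKO libraries thus went apart, although HK16 had the higher Gabra3 and Gabre. A count of 0 allows up to 0.140 CPM in HK16, and Gabrq fell below the low-count filter of both fits, so it has no fold change.

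**Figure D1:**
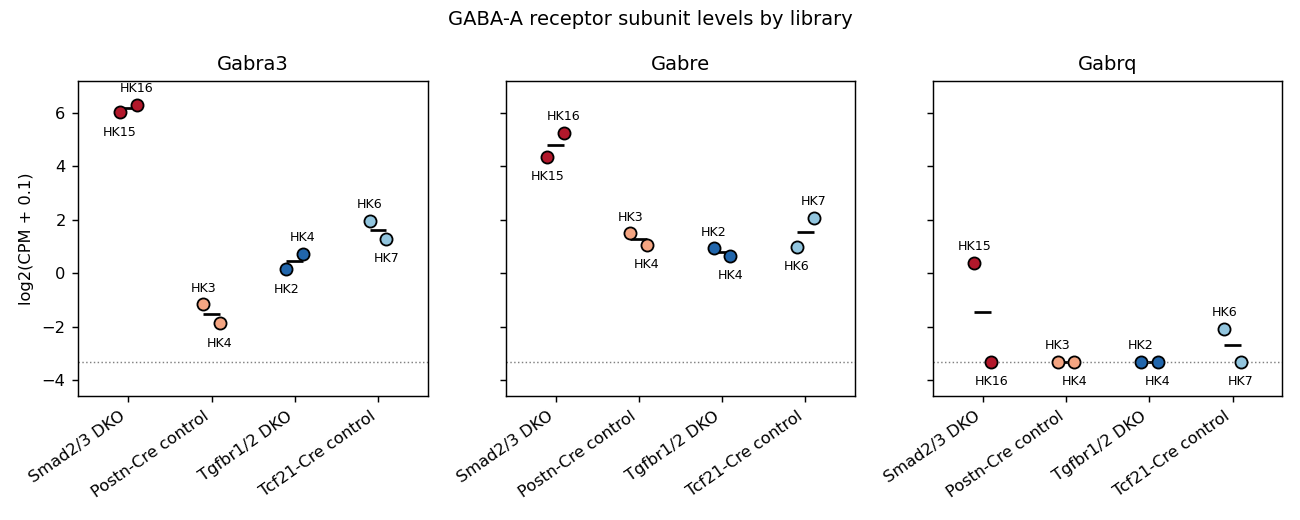
Level of each gene by library, as log2(CPM + 0.1), with libraries grouped by genotype (points, HK number beside each) and the group mean of the log2 values as a short bar. The dotted line marks a count of 0. Gabra3 and Gabre are highest in HK15 and HK16, and Gabrq is above 0 only in HK15 and HK6.

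Per kilobase of exon, which allows genes to be compared, the order of Gabra3 and Gabre changed between groups. Gabra3 had 16.7 and 20.3 CPM per kb and Gabre 4.33 and 8.04 CPM per kb in the Smad2/3 DKO libraries. In the Postn-Cre control libraries, Gabra3 had 0.0882 and 0.0443 CPM per kb and Gabre 0.577 and 0.423 CPM per kb. Gabra3 was the higher of the pair in both DKO libraries and the lower in both controls. In the Tgfbr1/2 DKO libraries Gabra3 had 0.258 and 0.400 CPM per kb and Gabre 0.382 and 0.310 CPM per kb, so their order differed between the libraries. In the Tcf21-Cre control libraries Gabra3 had 0.969 and 0.602 CPM per kb and Gabre 0.398 and 0.874 CPM per kb, and the order differed there too.

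Ordered by mean level over the 4 groups, Gabra3 was highest in Smad2/3 DKO cells, followed by Tcf21-Cre control, Tgfbr1/2 DKO and Postn-Cre control cells, and the ranges of neighbouring groups did not overlap. Gabre was highest in Smad2/3 DKO cells, followed by Tcf21-Cre control, Postn-Cre control and Tgfbr1/2 DKO cells. The ranges of Tcf21-Cre control (1.88 to 4.14 CPM) and Postn-Cre control cells (2.00 to 2.73 CPM) overlapped, whereas those of Postn-Cre control and Tgfbr1/2 DKO cells (1.47 to 1.81 CPM) did not. Between the groups of the Tgfbr1/2 comparison, 29.4% of the genes tested had both DKO libraries below both controls. Levels of groups in different runs were not tested against each other, and no such share was taken across runs.

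The Tgfbr1/2 comparison set cells labelled deficient in both TGF-beta receptors against Tcf21-lineage controls, in libraries other than those in which the genes stood out. Neither tested member passed the threshold of an adjusted p of 0.05 there. Gabra3 had a log2 fold change of -1.15 ± 0.50 (SE; unadjusted p = 0.0440, adjusted p = 0.234, edgeR's quasi-likelihood test with Benjamini-Hochberg adjustment), and 0.163 to 0.622 was the range of its adjusted p over the alternative settings. Gabre had -0.82 ± 0.52 (unadjusted p = 0.144, adjusted p = 0.416, with a range of 0.209 to 0.965). Its value was -0.06 without Tcf21-Cre control HK7 and -1.31 without HK6, so 1 control library set most of it. Of the 16658 genes tested here, 3.94% were called, 2.64% as higher and 1.31% as lower, and 29.4% had both DKO libraries below both controls. Both members lay below their controls in this sense, a position shared by that large part of all genes.

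The authors' deposited table of the Smad2/3 comparison lists Gabra3 with a log2 fold change of 4.20 and Gabre with 2.56, both smaller than the edgeR values. In it both Postn-Cre control libraries carry the same log2 value, -2.03 for Gabra3 and -1.06 for Gabre, although their counts differed. Gabrq is listed at 0.00 in all 4 libraries of that table, HK15 included. All 3 genes are listed at 0.00 in every library of the authors' deposited table of the Tgfbr1/2 comparison, although the counts of Gabra3 there ran from 33 to 111. Listing at exactly 0 was common: it held for 23936 of 30291 genes in the authors' deposited table of lower genes for the Smad2/3 comparison and for 23753 of 31729 in that for Tgfbr1/2.

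No neighbour of the cluster passed the threshold of edgeR's test in either comparison. The 13 protein-coding neighbours with a row in the files comprised 12 flanking genes and Magea10, which lies between Gabre and Gabra3. Of these, 7 were tested in the Smad2/3 comparison and 0 passed the threshold in edgeR's test, where 1.31% of all genes did. In that test 2 had an unadjusted p under 0.05, Prrg3 and Nsdhl (13.6% of all genes did). DESeq2 called 1, Prrg3, beside 745 of the 23154 genes it fitted. Prrg3, which encodes a proline-rich Gla-domain membrane protein, had 128 and 129 CPM in the Smad2/3 DKO libraries, against 82.2 and 59.8 CPM in the Postn-Cre control libraries (log2 fold change 0.79 ± 0.20, adjusted p = 0.0966). Nsdhl, an enzyme of cholesterol synthesis on the other side of the cluster, had 10.2 and 8.24 CPM in the DKO libraries, against 19.4 and 15.9 CPM in the controls (-1.00 ± 0.34, adjusted p = 0.216). The 2 thus differed in opposite directions.

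Magea10, within the cluster, had 0 counts in all 8 libraries, and Magea4, the nearest coding gene on the Gabre side, reached 0.0392 CPM in HK15 alone. Cetn2, which encodes a centrin of the centriole and is the nearest coding gene on the Gabrq side, had 5.64 and 1.72 CPM in the Smad2/3 DKO libraries, against 5.77 and 1.65 CPM in the controls. Those values were alike in range. Cnga2, a cyclic nucleotide-gated channel subunit, had 65 and 0 counts in the Smad2/3 DKO libraries, against 7 and 0 in the controls, and like Gabrq was highest in HK15. In the Tgfbr1/2 comparison 6 neighbours were tested and edgeR called 0, with 2 at an unadjusted p under 0.05 (Vma21 and Xlr4a; 20.0% of all genes) and 0 called by DESeq2. Over all 527 X-linked genes tested in the Smad2/3 comparison the median log2 fold change was -0.05, and over 15034 autosomal genes it was 0.01.

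**Figure D2:**
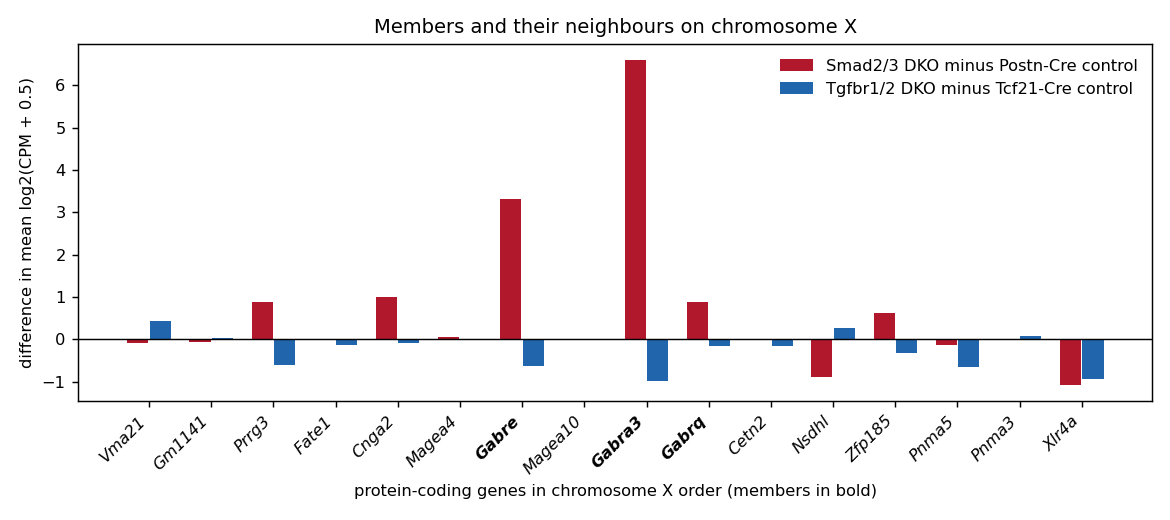
Difference between group means of log2(CPM + 0.5) for the 3 members (bold) and 13 protein-coding neighbours in their order along chromosome X, red for Smad2/3 DKO minus Postn-Cre control and blue for Tgfbr1/2 DKO minus Tcf21-Cre control. The red bars of Gabra3 (6.59) and Gabre (3.32) stand above those of all neighbours, of which Cnga2 is the highest at 0.99. The pseudocount makes these differences smaller than the edgeR log2 fold changes.

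Short genes are annotated within the spans of the members. Mir224 and Mir452 are annotated inside Gabre and on its strand, and Mir452 had an expected count of 9.95 and 1.41 in the Smad2/3 DKO libraries, against 0.00 and 0.00 in the Postn-Cre controls, and of 1.27 and 0.00 in the Tgfbr1/2 DKO libraries, against 5.79 and 4.87 in the Tcf21-Cre controls. The library kit as described marks no strand, and counts of these short genes cannot be told apart from reads of Gabre. Gm14735, a processed pseudogene on the other strand within Gabra3, had an expected count of 17.35 in HK15 and 0.00 in HK16, against 0.05 and 0.00 in the controls. Expected counts of Gabra3 were whole numbers in 6 of 8 libraries and of Gabrq in 8 of 8, within 1e-04, whereas those of Gabre were fractional in all 8. The counting tool is not named in the sources used here, so which reads of Gabre were divided is not known.

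Xist, the RNA that silences an X chromosome in female cells, moved with Gabra3 and Gabre between the Smad2/3 DKO and Postn-Cre control groups. Xist had 277 and 75.3 CPM in the Smad2/3 DKO libraries, against 3.65 and 2.18 CPM in the Postn-Cre control libraries (log2 fold change 5.84 ± 0.64, adjusted p = 0.00459 in edgeR's test). The call was lost when either control library was left out (adjusted p up to 0.546). The order within the DKO group was the reverse of that of Gabra3, with Xist higher in HK15 and Gabra3 higher in HK16. The Y-linked genes Ddx3y, Eif2s3y, Kdm5d and Uty were present in all 8 libraries, and none passed the threshold in either comparison in edgeR's test. Ddx3y had 132 and 177 CPM in the Smad2/3 DKO libraries, against 164 and 222 CPM in the Postn-Cre control libraries (-0.38 ± 0.20, adjusted p = 0.466). The X-linked genes Kdm5c, Kdm6a, Ddx3x and Eif2s3x, which have Y-linked partners, also stayed short of it, with log2 fold changes between -0.13 (Kdm6a) and 0.04 (Ddx3x) in Smad2/3 DKO cells. Whether the sex of the mice has a part in the Gabra3 and Gabre values was not tested.

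**Figure D3:**
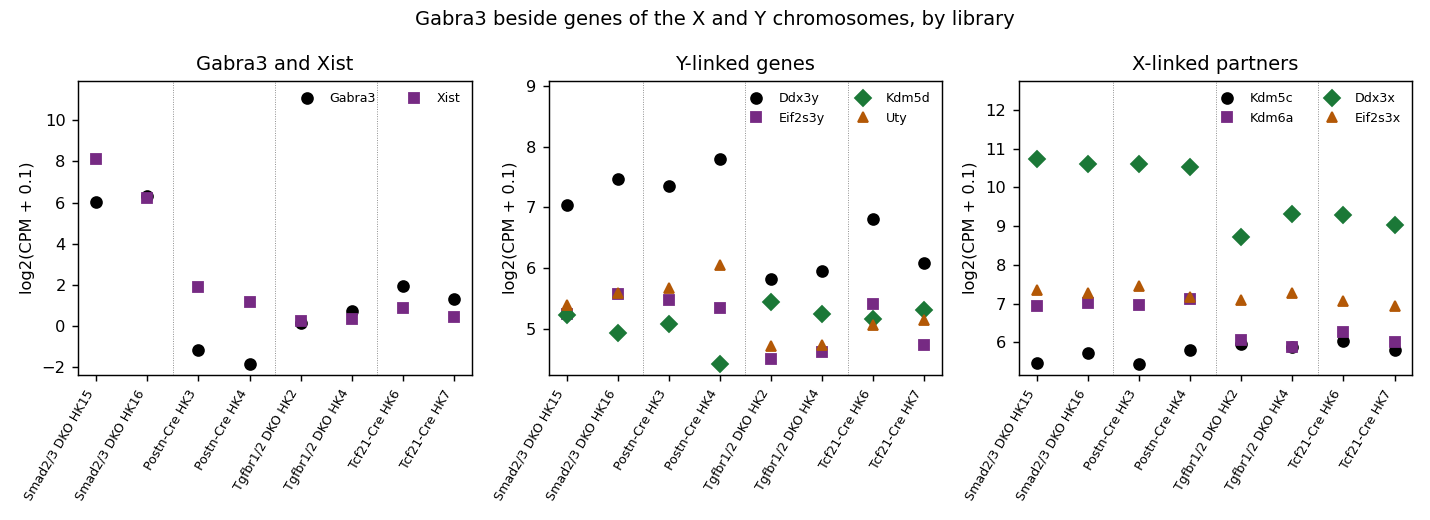
Levels by library as log2(CPM + 0.1), with dotted lines between groups. Left, Gabra3 and Xist, both highest in HK15 and HK16; middle, 4 Y-linked genes, present in all 8 libraries; right, their X-linked partners. The Y-linked and X-linked panels do not start at 0.

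The other subunits of GABA-A receptors were at 0 or at low levels. Of the 16 other subunit genes, Gabra6, Gabrg1, Gabrg3 and Gabrd had 0 counts in all 8 libraries. Only Gabrr2, a rho subunit, and Gabrp, the pi subunit, passed the low-count filter in the Smad2/3 comparison, and Gabrr2 alone in the Tgfbr1/2 comparison, with 0 calls by edgeR or DESeq2 and 0 at an unadjusted p under 0.05 in either. Gabrr2 had 2.35 and 1.21 CPM in the Smad2/3 DKO libraries, against 0.769 and 3.13 CPM in the Postn-Cre control libraries (-0.18 ± 0.85, adjusted p = 0.964). The groups overlapped. Gabrb1, a beta subunit, had 0.901 and 0 CPM in the Smad2/3 DKO libraries, against 0.154 and 0.305 CPM in the controls, and Gabrr1 had 0.705 and 0.326 CPM, against 0.0385 and 0.0435 CPM.

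Summed over the 16 genes, the level was 4.07 and 1.96 CPM in the Smad2/3 DKO libraries, against 1.08 and 4.00 CPM in the Postn-Cre control libraries. The sum was 1.29 and 0.334 CPM in the Tgfbr1/2 DKO libraries, against 1.71 and 0.513 CPM in the Tcf21-Cre control libraries. The sums overlapped between the groups of both comparisons. No beta subunit, a kind found in most such channels, reached 1 CPM in any library.

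**Figure D4:**
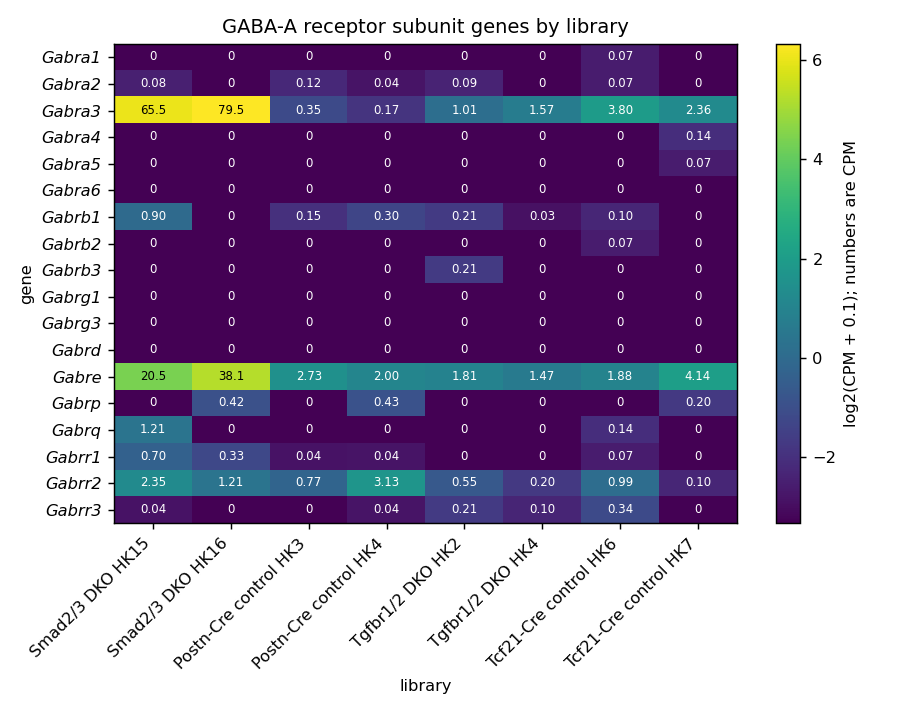
Level of 18 GABA-A receptor subunit genes (down the page) in each library (across), with colour as log2(CPM + 0.1) and CPM printed in each cell. The brightest cells are those of Gabra3 and Gabre in the 2 Smad2/3 DKO libraries, and the rows of Gabra6, Gabrg1, Gabrg3 and Gabrd are at 0 throughout.

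Genes that act with GABA or with its receptor, and related receptor subunits, were read from 6 lists of 80 genes, called the GABA lists. Of these genes, 79 were in the files. The last list, of 24 genes, holds other cys-loop subunits, such as those of glycine, nicotinic and 5-HT3 receptors, which are not GABA receptors. Over all 6 lists, 42 genes were tested in the Smad2/3 comparison and edgeR called 0, where it called 1.31% of all genes. DESeq2 called 1, Glra4 of the cys-loop list, beside 745 of the 23154 genes it fitted. In edgeR's test 7 list genes had an unadjusted p under 0.05, a share near the 13.6% of all genes tested. The median log2 fold change of the tested list genes was -0.05, also with Glra4 at its lower bound, beside 0.01 over all genes tested. Glra4, a glycine receptor alpha subunit on chromosome X, had 43 and 11 counts in the Smad2/3 DKO libraries, against 0 and 0 in the Postn-Cre control libraries. In the Tgfbr1/2 comparison 46 list genes were tested, 0 rose and 3 fell, among them Abat and, from the cys-loop list, Glrb. The median of the 46 was -0.04, beside -0.01 over all genes. Of all genes tested there, edgeR called 3.94%, 2.64% as higher and 1.31% as lower. DESeq2 called 6 of the list genes there, beside 1073 of the 24027 genes it fitted. In edgeR's test 8 list genes had an unadjusted p under 0.05, a share near the 20.0% of all genes.

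Gabbr1, a subunit of the metabotropic GABA-B receptor, had 35.5 and 31.0 CPM in the Smad2/3 DKO libraries, against 18.4 and 20.1 CPM in the Postn-Cre control libraries (0.73 ± 0.26, adjusted p = 0.239). It had 19.0 and 17.1 CPM in the Tgfbr1/2 DKO libraries, against 32.3 and 34.4 CPM in the Tcf21-Cre control libraries (-0.81 ± 0.21, adjusted p = 0.0596 in edgeR's test; called by DESeq2). The groups did not overlap in either comparison, and neither difference passed edgeR's threshold. Such positions were common, held by 25.5% of genes (DKO above control) in the Smad2/3 and 29.4% (DKO below control) in the Tgfbr1/2 comparison. Gabbr2, its partner subunit, was at 0 in 7 libraries and at 0.092 CPM in Tgfbr1/2 DKO library HK2.

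Among 13 genes of GABA synthesis, breakdown and transport, 7 were tested and 0 passed in the Smad2/3 comparison, and 9 were tested and 1 fell in the Tgfbr1/2 comparison. Abat, the transaminase that breaks GABA down, had 22.6 and 20.8 CPM in the Tgfbr1/2 DKO libraries, against 45.7 and 42.8 CPM in the Tcf21-Cre control libraries (-0.95 ± 0.19, adjusted p = 0.0266), and the call was lost when any 1 of the 4 libraries was left out (adjusted p up to 0.131). In Smad2/3 DKO libraries Abat had 17.2 and 14.1 CPM, against 16.8 and 14.8 CPM in the Postn-Cre controls. Slc6a6, a taurine transporter that also carries GABA, had a log2 fold change of -0.38 (adjusted p = 0.285) in Smad2/3 DKO and of 0.72 (adjusted p = 0.0638) in Tgfbr1/2 DKO cells. Maob, a monoamine oxidase, had 1.22 (adjusted p = 0.216) and 0.45 (adjusted p = 0.454) in the same comparisons. Of the GABA-synthesising enzymes, Gad1 was at or under 0.0668 CPM in every library and Gad2 lay between 0.668 and 1.73 CPM. Slc32a1, the vesicular GABA transporter, was at 0 in all 8.

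Of 18 genes for assembly, trafficking and clustering of the receptor, 17 were tested and 0 were called by edgeR or DESeq2 in the Smad2/3 comparison, with 2 (Gabarapl2 and Trak1) at an unadjusted p under 0.05. In Smad2/3 DKO over control cells, Trak1, which serves receptor transport, was at -0.37 on the log2 scale (adjusted p = 0.321), Gabarap, a receptor-associated protein, at 0.24 (adjusted p = 0.609) and Rdx, a radixin gene, at -0.00 (adjusted p = 0.998).

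None of the 7 chloride cotransporter genes passed edgeR's threshold or DESeq2's in either comparison, and 0 had an unadjusted p under 0.05. Slc12a2, the importer NKCC1, had 67.5 and 71.4 CPM in the Smad2/3 DKO libraries, against 44.6 and 59.6 CPM in the Postn-Cre control libraries (0.36 ± 0.22, adjusted p = 0.528). Slc12a4, a potassium-coupled exporter, had 0.06 (adjusted p = 0.966). Of 23 other cys-loop subunits in the files, 8 were tested in the Smad2/3 and 11 in the Tgfbr1/2 comparison, and 0 and 1 passed. The 1 that fell, the glycine receptor beta subunit Glrb, had 2 and 3 counts in the Tgfbr1/2 DKO libraries, against 57 and 32 counts in the Tcf21-Cre control libraries (adjusted p = 0.0267, lost when any 1 library was left out, up to 0.155). For the nicotinic subunits, in Smad2/3 DKO over control cells Chrnb1 was at 0.29 on the log2 scale (adjusted p = 0.803) and Chrna1 at -0.25 (adjusted p = 0.869), and the glycine receptor subunit Glra1 had -0.12 (adjusted p = 0.952).

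Markers of other cell types were read beside these values. The 12 neuron markers summed to 12.0 and 8.80 CPM in the Smad2/3 DKO libraries, against 12.3 and 15.7 CPM in the Postn-Cre control libraries, and Th was at 0 in all 8. They summed to 33.7 and 23.6 CPM in the Tgfbr1/2 DKO libraries, against 27.0 and 20.8 CPM in the Tcf21-Cre control libraries. The neuron sums in HK15 and HK16 were the 2 lowest of the 8, with that of HK15 close to that of Postn-Cre control HK3. Most of the sum in the Tgfbr1/2 comparison came from Tubb3 and Uchl1. Tubb3 had 18.6 and 9.25 CPM in its DKO libraries, against 8.60 and 5.03 CPM in its controls. Uchl1 had 9.73 and 8.55 CPM, against 13.2 and 9.24 CPM. The 12 Schwann cell and glia markers summed to 1456 and 1586 CPM in the Smad2/3 DKO libraries, against 1535 and 1171 CPM in the controls, nearly all of it from Pmp22, which fibroblasts also express. Of the 12 endothelial markers 0 passed in the Smad2/3 comparison, with sums of 264 and 163 CPM in DKO libraries, against 544 and 270 CPM in controls, and the part of this difference in the Gabra3 and Gabre values was not tested. Of 12 fibroblast markers, Col1a1, Col1a2 and Col3a1 fell in the Smad2/3 comparison, where 135 of 15760 genes tested did. The fibroblast sums were 18783 and 18344 CPM in DKO libraries, against 26731 and 23054 CPM in controls, and did not overlap. Whether this difference has a part in the Gabra3 and Gabre values was not tested. Of 12 pericyte and smooth muscle markers Kcnj8 fell there, a call lost without Postn-Cre control HK3, where its log2 fold change was -2.49. Of the 11 myeloid markers in the files 3 rose in the Tgfbr1/2 comparison (Cd74, Csf1r and Itgam, each call lost without at least 1 library), with sums of 214 and 232 CPM in DKO libraries, against 58.5 and 88.3 CPM in controls, and their part in the lower Gabra3 and Gabre values there was not tested. The smooth muscle actin gene Acta2 (1.09, adjusted p = 0.0141) and the endothelial gene Eng (0.78, adjusted p = 0.0423) also rose in the Tgfbr1/2 comparison, each call being lost without at least 1 library. The endothelial sums were 565 and 542 CPM in the Tgfbr1/2 DKO libraries, against 468 and 424 CPM in the Tcf21-Cre control libraries, and did not overlap; their part was not tested either. Pericyte and smooth muscle sums (1114 and 837 CPM in Smad2/3 DKO, against 1645 and 923 CPM in control libraries) and cardiomyocyte sums (764 and 713 CPM, against 672 and 721 CPM) overlapped between the groups. Most of the cardiomyocyte sum came from Atp2a2 in each of these libraries, so its overlap says little about the other markers. Of the 11 cardiomyocyte markers tested in the Smad2/3 comparison 0 passed, with a median log2 fold change of -1.11. Only Tnnt2 (0.82) and Atp2a2 (0.25) among them were higher in DKO cells. The part of this difference in the Gabra3 and Gabre values was not tested.

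The genes whose levels ran most like each member over the 8 libraries were taken by Pearson's r of log2(CPM + 0.5) among 15308 genes, as a description. The libraries share runs and groups, so a high r largely reflects the 2 high libraries. For Gabra3 the highest was Recql, a DNA helicase gene on chromosome 6 (r = 0.978), with 14.8 and 16.5 CPM in the Smad2/3 DKO libraries, against 7.96 and 6.31 CPM in the Postn-Cre control libraries. Its likeness was in the order of the libraries, since its range of levels was far narrower than that of Gabra3. AC155258.1, Serpinb6b, 1700086D15Rik and Gm7645 followed, at r from 0.977 to 0.968. Gabre came 42nd for Gabra3, at r = 0.919 (n = 8 libraries).

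For Gabre, 4 of the 5 most alike genes lay within a short stretch of chromosome 2: Gm14443 (from position 175166255), 2210418O10Rik (from 176226569), BX890623.1 (from 176257249) and Gm14296 (from 176892509). Gm14296 had 8.15 and 9.73 CPM in the Smad2/3 DKO libraries, against 0.0769 and 0.174 CPM in the Postn-Cre control libraries, and at most 0.0685 CPM in the libraries of the Tgfbr1/2 comparison. Gm14443 had 2.66 and 6.15 CPM in the Smad2/3 DKO libraries, against 0.0385 and 0 CPM in the Postn-Cre control libraries, and 0 in those of the Tgfbr1/2 comparison. These genes were close to the floor in all libraries but HK15 and HK16, whereas Gabre kept a low level in every library. The fifth was Trim38 on chromosome 13 (r = 0.973). For Gabrq, Wdr60 (r = 0.977), AC115880.1, Kif5a, AA986860 and D630004N19Rik ran most alike, and with Gabrq at 0 in 6 libraries this rests on HK15, where all 5 were highest.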

How the data were processed

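Per the labels' protocols, total RNA of sorted GFP-positive cells was amplified with NuGEN Ovation v2, made into Nextera XT libraries and sequenced on a HiSeq2500, with no strand marking described. The deposited raw tables (2, with 38087 Ensembl genes each) hold expected counts made by the authors. Per the submitters' processing notes the build was mm10; the sources used here name no aligner or counter. Log2 values per library, log2 fold changes, fold ratios and a signed score, all by the authors per the file headers, were read where the authors' deposited table is named.

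Expected counts of rows with 1 symbol were summed (278 symbols from 3966 rows) and rounded, which left 34399 symbols. CPM is the count per 1000000 of the library total. The 4 libraries of a comparison entered 1 fit in edgeR 4.0.16 under R 4.3.3 (TMM, filterByExpr, robust quasi-likelihood F test, two-sided), with Benjamini-Hochberg adjustment over all genes tested and a threshold of 0.05. SEs were derived from the F statistic. The alternatives were DESeq2-type size factors, no low-count filter, DESeq2 1.42.0, no robust estimation, a fit of all 8 libraries, and leaving out each library in turn, which assumes the lone library to be as variable as the pair. For levels they were TMM-scaled library sizes and unrounded counts. The fits were also run on simulated data, and that outcome is not given here and is not used for any result.

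Positions are from GENCODE vM21, which held 95.3% of the identifiers, and promoters from RefSeq tables (GRCm38.p6), in which all 3 members were found. The members and the gene lists were chosen with earlier results of these data known. Named were the 3 members, called list genes (up to 4 per list and comparison), the 3 highest genes of each GABA list where tested, 6 coding neighbours on each side of the cluster and those inside it, the 5 genes most like each member (at least 1 CPM in 2 libraries), the sex-chromosome genes and the targeted genes. Glra4, Gad1, Gad2, Slc32a1, Gabrp, Gabbr2 and the markers were named after their values were seen. A few genes that this rule names are not reported here.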

Additional observations from a re-analysis of the deposited data

Results flagged for a closer look

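Gabra3 and Gabre lay in opposite directions in the Smad2/3 and Tgfbr1/2 comparisons. The log2 fold change of Gabra3 was 8.01 in Smad2/3 DKO over Postn-Cre control and -1.15 in Tgfbr1/2 DKO over Tcf21-Cre control. Every Smad2/3 DKO library stood above both of its controls and every Tgfbr1/2 DKO library below both of its own. Such positions were shared by 25.5% and 29.4% of the genes tested in the 2 comparisons. Gabre had 3.57 and -0.82 in the same order, with libraries as close as 1.81 CPM in Tgfbr1/2 DKO HK2 and 1.88 CPM in Tcf21-Cre control HK6. Its Tgfbr1/2 value was -0.06 without Tcf21-Cre control HK7. Neither gene passed the threshold of edgeR's test in the Tgfbr1/2 comparison (adjusted p = 0.234 for Gabra3 and 0.416 for Gabre). The difference between the comparisons was not tested, and run, Cre driver and targeted genes cannot be told apart in it.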

How the results depend on the processing

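Over the 9 alternatives of each comparison, none of the recomputed results changed its direction. Member levels moved by less than the spread between libraries with TMM-scaled sizes and with unrounded counts. Leaving out 1 library gave 7.62 to 8.62 for the log2 fold change of Gabra3 and 3.04 to 3.95 for that of Gabre in the Smad2/3 comparison, with 102 to 297 genes called (206 with all libraries), and 0 to 1 GABA-list genes. In the Tgfbr1/2 comparison it gave 272 to 497 genes called (657 with all) and 0 to 1 GABA-list genes (3 with all). Without the low-count filter 819 genes were called in the Smad2/3 and 1229 in the Tgfbr1/2 comparison, with 2 and 7 GABA-list genes. The 2 were Glra4 and Htr3b, both other cys-loop subunits. DESeq2 called 745 and 1073, with 1 (Glra4) and 6 GABA-list genes. The fit of all 8 libraries called 299 genes and 0 GABA-list genes in the Tgfbr1/2 comparison. For these the cause was not tested. No paired analysis was possible because the HK numbers name libraries and the groups compared share none of them. With 2 libraries per group and controls at 9 and 4 counts of Gabra3, its fold change is known less well than its level in the Smad2/3 DKO libraries.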
